A study of Danio rerio with 13 samples.

Results

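Regions of the zebrafish genome that carried 6mA-IP-seq summits at the 64-cell stage (64C), carried none at 11 h post fertilization (hpf) and carried them again at 12 or 13 hpf are described here. N6-methyldeoxyadenosine (6mA) is an adenine with a methyl group on its amino nitrogen. Bacteria use it to mark their own DNA in restriction-modification, and in eukaryotes it is a rare base whose roles are less well known. Zebrafish embryos at 64C are in the rapid cleavage divisions before their own genome is broadly transcribed, whereas at 11 to 13 hpf gastrulation is over and the first somites form.

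In 6mA-IP-seq, fragmented genomic DNA (gDNA) is pulled down with an antibody to 6mA and sequenced, and sequence enriched over the unselected input is called as a peak. A summit is the point of highest enrichment in a peak. Embryos were of the Tubingen strain, with no treatment given in the labels, and many were pooled for each DNA extraction. There was 1 IP library at 64C from the SYSY antibody, 1 at 64C from the Abcam antibody, and 2 replicates each at 11, 12 and 13 hpf from the SYSY antibody. The labels list 1 input for each later stage, so the calls of its 2 replicates may share that input and not be independent. The labels do not say whether the 2 replicates of a stage came from separate clutches. The paper calls these replicates biological.

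The summits of all 8 IP libraries were pooled, and summits on the same chromosome with gaps of at most 250 bp were chained into 63852 regions. Of these, 494 were members. The members were chosen by the presence and absence of called summits: at least 1 summit in either 64C library, none in either replicate of 11 hpf, and a summit in at least 2 of the 4 libraries of 12 and 13 hpf. Presence and absence in the 8 libraries are thus the rule and not a result, so that no test was made on them. "Absent" means only that the 11 hpf lists hold no summit there, since reads were not analysed here. No genome sequence or gene annotation of danRer10, the assembly of the files, was used, and the regions are given by position alone.

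The lists differed in length, from 2439 summits (13 hpf replicate 2) to 7582 (11 hpf replicate 1) at the later stages, against 79291 at 64C with SYSY and 53511 at 64C with Abcam. Sequencing depth is unknown, and depth and 6mA content cannot be told apart as sources of these lengths. The 64C SYSY list has no summit on unplaced scaffolds (its only summit off the numbered chromosomes is mitochondrial) and ends early on some chromosomes. Each summit carries a score, the −log10 of its q-value, with a floor of 2 that follows from the false discovery rate cutoff of 0.01. Since a score depends on the depth of its library, it was turned into a percentile within its own list before libraries were set side by side.

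Of 62614 regions with a 64C summit, the 494 members made up 0.789%. They were 0.868% of the 56914 such regions without an 11 hpf summit. Seen from the later stages, 2321 regions with a 64C summit had summits in at least 2 of the 4 libraries of 12 and 13 hpf, and 21.3% of these lacked both 11 hpf replicates (95% Wilson interval 19.7 to 23.0%, which like all intervals here covers counting error only). The other 1827, called kept regions below, had an 11 hpf summit: 1182 in both replicates, 457 in replicate 1 only and 188 in replicate 2 only. Kept regions thus outnumbered the members. Of the 536 regions that met the conditions for 11, 12 and 13 hpf, 494 (92.2%) had a 64C summit and 42 (7.84%) had none. Over the whole series, 62614 of 63852 regions had a 64C summit. The 92.2% was thus not above the share in all regions. However, 54328 of these 64C regions had no summit at any later stage, so the share in all regions rests on the long 64C lists. It does not show whether 92.2% was high or low for regions with later summits.

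The same rule was applied with another stage as the absent one, to show what the rule yields in itself. With 12 hpf as the absent stage it gave 1032 regions, which were 1.65% of the 64C regions and 35.3% of those with summits in at least 2 of the 4 libraries of 11 and 13 hpf. With 13 hpf as the absent stage it gave 1603 regions, 2.56% of the 64C regions and 49.0% of those with summits in at least 2 of the 4 libraries of 11 and 12 hpf. Absence at 11 hpf was therefore the least frequent of the 3 in the deposited lists, and absence was more frequent the shorter the lists of a stage. The sets overlap. Of the regions absent at 12 hpf, 69 were held by 13 hpf alone and were also members. Of those absent at 13 hpf, 153 were held by 12 hpf alone and were also members. When the 2439 highest-scoring summits were taken from each of the 6 later lists and all 64C summits were kept, a choice made after seeing the data, the 3 numbers came together. They were then 599 regions absent at 11 hpf, 598 at 12 hpf and 630 at 13 hpf. These were 37.2% (34.9 to 39.6%), 37.0% (34.7 to 39.4%) and 38.6% (36.3 to 41.0%) of the regions that could have been absent. With equal list lengths, the intervals of the 3 stages overlapped. Of the 494 members, 247 lay in a region that met the rule in the shortened lists as well.

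The number of members also changed when single libraries were left out, in a direction largely fixed by the rule. It rose to 956 without 11 hpf replicate 1, the longest of the later lists, and to 683 without 11 hpf replicate 2. It fell to 274 and 230 without 12 hpf replicates 1 and 2, and to 300 and 369 without 13 hpf replicates 1 and 2. Without the 64C SYSY library 387 regions met the rule, and without the 64C Abcam library 409.

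Most members were held by few libraries. Of the 494, 402 (81.4%) had summits in exactly 2 of the 4 libraries of 12 and 13 hpf, 76 in 3 and 16 in all 4. By library, 291 members had a summit in 12 hpf replicate 1, 339 in 12 hpf replicate 2, 273 in 13 hpf replicate 1 and 193 in 13 hpf replicate 2. The order of these numbers was again that of the list lengths. As a share of the regions of each library, the members came to 10.4%, 10.2%, 10.1% and 10.8%, which is nearly the same share in all 4.

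**Figure D1:**
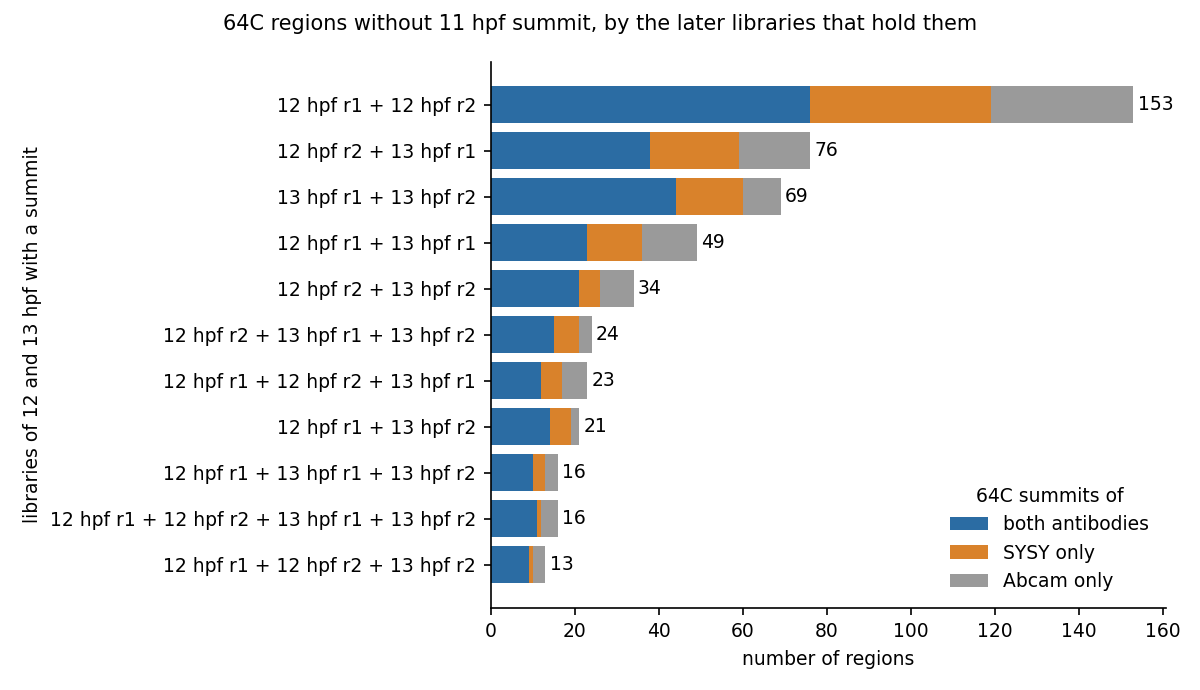
Members by the combination of 12 and 13 hpf libraries in which they had a summit (bars, number of regions; colours, the 64C antibodies with a summit). The pair of 12 hpf replicates holds 153 of the 494 regions, and all 4 libraries together hold 16.

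By stage, 153 members (31.0%) were held by both replicates of 12 hpf and no library of 13 hpf, 69 (14.0%) by both replicates of 13 hpf and no library of 12 hpf, and 272 (55.1%) by libraries of both stages. Of the last, 180 had just 1 library of each stage. Among these single pairs, the combination of 12 hpf replicate 2 with 13 hpf replicate 1 had 76 members, 12 hpf replicate 1 with 13 hpf replicate 1 had 49, 12 hpf replicate 2 with 13 hpf replicate 2 had 34, and 12 hpf replicate 1 with 13 hpf replicate 2 had 21. Pairs with the shortest list, 13 hpf replicate 2, were the smallest. In the later lists of equal length the shares held by a single stage were 17.0% for 12 hpf and 21.7% for 13 hpf, so that the larger share of 12 hpf alone was not kept.

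The share of regions without an 11 hpf summit depended on how many later libraries held a region. Among 64C regions with a summit in exactly 1 of the 4 libraries of 12 and 13 hpf, 62.5% (60.8 to 64.1%) lacked 11 hpf, and these are outside the rule. The share was 34.3% (31.6 to 37.1%) of 1172 regions with 2 libraries, 12.8% (10.4 to 15.8%) of 592 regions with 3 and 2.87% (1.78 to 4.61%) of 557 regions with all 4. Regions that recurred in every library of 12 and 13 hpf thus rarely lacked 11 hpf. Of the 1357 64C regions held by both replicates of 12 hpf, 205 (15.1%) lacked 11 hpf and 451 (33.2%) lacked 13 hpf. Of the 967 held by both replicates of 13 hpf, 125 (12.9%) lacked 11 hpf and 167 (17.3%) lacked 12 hpf.

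**Figure D2:**
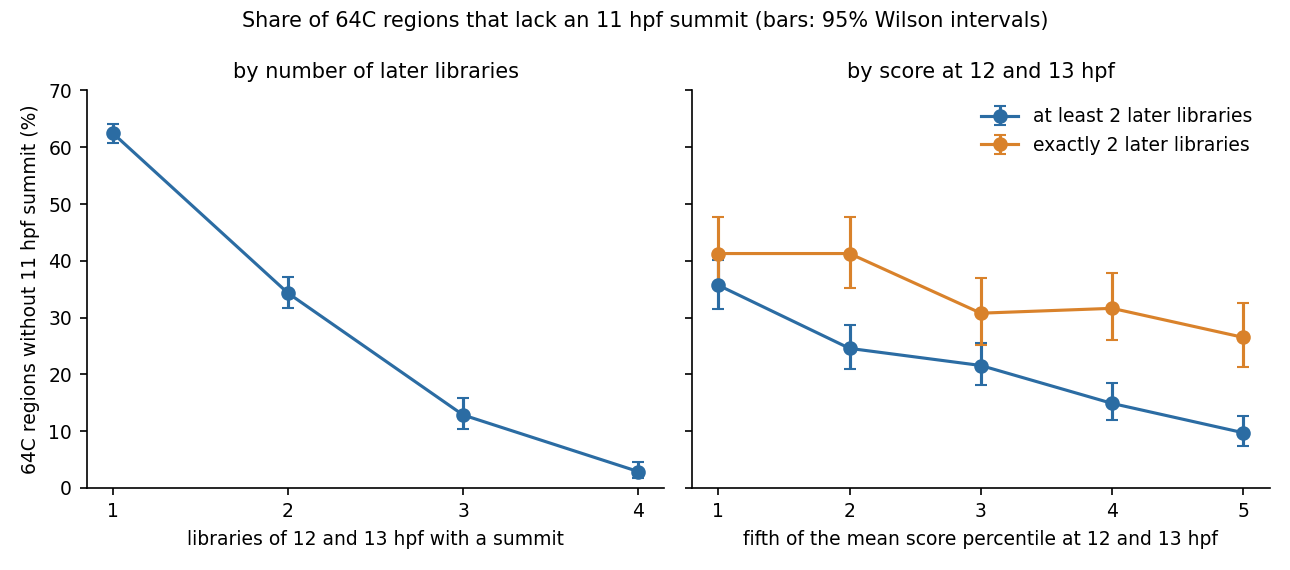
Share of 64C regions that lacked an 11 hpf summit (points, percent; bars, 95% Wilson intervals), by the number of 12 and 13 hpf libraries with a summit (left) and by 5 groups of the mean score percentile in those libraries (right). The share falls from 62.5% with 1 library to 2.87% with 4, and from 35.7% in the lowest to 9.70% in the highest group for regions with at least 2 libraries.

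It depended on the scores at 12 and 13 hpf as well. Regions with a 64C summit and at least 2 of the 4 later libraries were split into 5 groups of nearly equal size by the mean percentile of their best summits at 12 and 13 hpf. In the lowest group 35.7% (31.5 to 40.2%) had no 11 hpf summit, and in the highest group 9.70% (7.33 to 12.7%). For regions with exactly 2 libraries the fall was less steep, from 41.3% (35.2 to 47.7%) in the lowest group to 26.5% (21.3 to 32.5%) in the highest. As both measures come from the lists that chose the members, these are descriptions and not tests.

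The members' summits at 12 and 13 hpf scored slightly below the middle of their lists. The median percentile of the best summit in a member was 46.2 in 12 hpf replicate 1, 46.3 in 12 hpf replicate 2, 45.9 in 13 hpf replicate 1 and 49.0 in 13 hpf replicate 2. In all regions of the same libraries it was 51.2, 51.0, 50.4 and 52.8, and in kept regions 65.6, 67.3, 65.7 and 61.9. Regions absent at 13 hpf had medians of 46.2 and 49.2 in replicates 1 and 2 of 12 hpf. Those absent at 12 hpf had 48.7 and 42.2 in replicates 1 and 2 of 13 hpf. In each of these 4 libraries the members were thus below the kept regions, with wide overlap of their quartiles. Part of the gap went with the number of libraries, since among regions with exactly 2 later libraries the medians were 46.2, 46.3, 45.9 and 42.4 in members against 49.3, 53.3, 51.0 and 43.2 in kept regions. Scores under 3, near the floor of the lists, were found for 24.9 to 34.4% of the members in the 4 libraries for 19.7 to 32.3% of all regions there and for 13.9 to 20.7% of the kept regions. In each of the 4 libraries the members' share was a few percentage points above that of all regions. A region can hold several summits of a library, of which the best was taken, and kept regions held more summits.

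**Figure D3:**
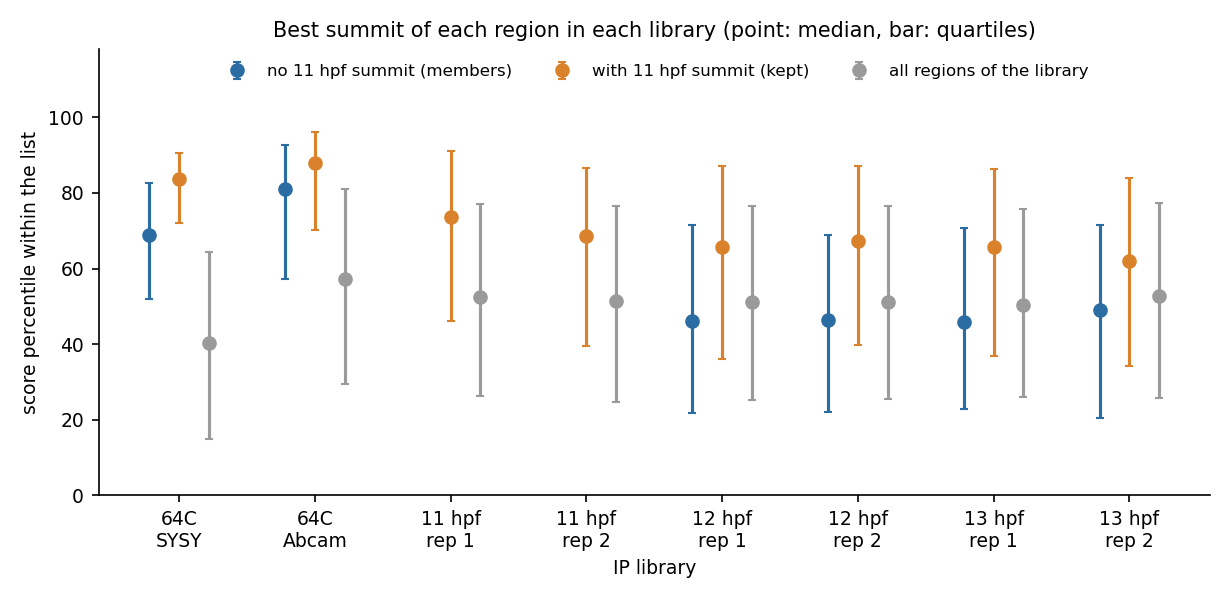
Percentile of the best summit of a region within the list of each IP library (points, medians; bars, quartiles), for members, kept regions and all regions of the library. At 12 and 13 hpf the medians of the members lie between 45.9 and 49.0, below those of kept regions (61.9 to 67.3), and at 64C they lie at 68.9 and 80.9.

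At 64C the members had higher median percentiles within their lists than at 12 and 13 hpf. The lists are of unlike length, 79291 and 53511 summits at 64C against 2439 to 4474 at 12 and 13 hpf. Equal percentiles therefore do not mean equal standing, and the difference is not a measure of stronger signal at 64C. Of the 494, 392 (79.4%) had a summit of the SYSY antibody and 375 (75.9%) one of the Abcam antibody. The best SYSY summit had a median percentile of 68.9 in members, against 40.3 in all regions of that library and 83.6 in kept regions. The best Abcam summit had a median percentile of 80.9 in members, against 57.3 in all regions and 87.8 in kept regions. With both antibodies the members thus lay between all 64C regions and the kept regions. So did the regions absent at 12 hpf (74.4 for SYSY, 82.5 for Abcam) and those absent at 13 hpf (75.4 and 82.5). The best of several summits was taken here too. The median number of 64C summits in a region was 1 in all 64C regions, 3 in members and 6 in kept regions. It was 4 in the regions absent at 12 hpf and in those absent at 13 hpf. Whether the percentiles went with these numbers was not tested.

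Both antibodies had a summit in 273 members (55.3%, 50.9 to 59.6%), whereas 119 (24.1%) had one of SYSY only and 102 (20.6%) one of Abcam only. In all 64C regions both antibodies had summits in 20.1%, in kept regions in 70.9% (68.8 to 73.0%), and in the regions absent at 12 and at 13 hpf in 66.7% and 69.2%. The interval of the members lay below those of the other 3 sets and above the value of all 64C regions. The sets absent at 12 and 13 hpf themselves hold 69 and 153 of the members. Among regions with exactly 2 later libraries the shares were 53.7% (48.8 to 58.5%) in members and 71.3% (68.0 to 74.4%) in kept regions, so that the lower share was also present at an equal number of later libraries. These sets still differed in size, with a median of 236 bp and 3 summits at 64C in members against 470.5 bp and 5 summits in kept regions. Whether the share with both antibodies went with width or number of summits was not tested, here or below. All 38 members on scaffolds and 12 members past the last SYSY summit of their chromosome had Abcam summits only, being where the SYSY list holds no summit. In the remaining 444 members both antibodies had summits in 61.5% (56.9 to 65.9%), and in kept regions of the same range in 80.8% (78.8 to 82.7%). In the later lists of equal length the share of members with both antibodies was 63.4% (59.5 to 67.2%). This share was not computed for the other sets there, so whether they still differed from the members is not known. With the 2439 highest-scoring summits of all 8 lists, the 64C lists included, both antibodies had summits in 0 of the 98 regions that met the rule. Only 35 of the 494 members still met it there. This cut shortened the 64C lists from 79291 and 53511 summits, and the share in all 64C regions or kept regions was not computed under it. The 0 of 98 is therefore not shown to be particular to the members. Counted the other way, 2.17% of the regions with both antibodies, 0.362% of those with SYSY only and 0.596% of those with Abcam only were members.

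Within a member the summits of different libraries are close by the rule, which chains gaps of at most 250 bp. The distances below describe the members and were not taken for other sets. The closest pair of a 64C summit and a 12 or 13 hpf summit was a median of 7 bp apart, with quartiles of 2 and 19 bp. In 483 members (97.8%) it was within 100 bp, and in 43 members both summits were on the same base. In the 273 members with both antibodies, the closest SYSY and Abcam summits were a median of 10 bp apart. Among the 12 and 13 hpf libraries that held a member another measure was taken, the distance of the library farthest from its nearest partner. It was taken in all 494 members, also in those held by replicates of a single stage. Its median was 37 bp (quartiles 9 and 100 bp), which cannot be set against the closest pairs above. In 40 members this distance was over 250 bp, so that they are 1 region only through summits of other libraries between them.

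From the first to the last summit they spanned a median of 251 bp (quartiles 82.2 and 462 bp) and held a median of 5 summits, from 3 to 26. All 64C regions spanned a median of 1 bp with 1 summit, kept regions 531 bp with 13 summits, and regions absent at 12 or 13 hpf 315 and 335 bp with 6 and 7 summits. The number of libraries fixes part of this, as a region with more libraries has more summits to chain. The widest member was on chromosome 7 from 67166779 to 67169081 (2303 bp), where the Abcam library had 15 summits, the SYSY library 6 and the 2 replicates of 12 hpf 1 each. The next, on chromosome 2 from 709888 to 712077, had 14 Abcam, 8 SYSY and 4 summits of 12 hpf. In both, the 64C summits made up most of the region and 13 hpf was without a summit.

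Of the 494 members, 11 had a summit in all 6 libraries outside 11 hpf, and these are named here, followed by the member with 5 libraries whose scores ranked best. On chromosome 25 from 4162441 to 4162563, the best scores were 17.0 (SYSY) and 15.0 (Abcam) at 64C, 17.2 and 9.48 in replicates 1 and 2 of 12 hpf, and 9.55 and 13.3 in those of 13 hpf. It stood high in all 6 lists, with a mean percentile of 93.3, and the nearest 11 hpf summit was 28664 bp away. On chromosome 16 from 3918083 to 3918199, the scores were 20.4 and 10.0 at 64C, 8.87 and 10.1 at 12 hpf, and 11.9 and 14.5 at 13 hpf. This region was at the 87.8 percentile or above in every library, and its nearest 11 hpf summit was 24286 bp away. On chromosome 13 from 37 to 320, at the very start of the chromosome, the scores were 16.4 and 14.0 at 64C, 6.72 and 11.2 at 12 hpf, and 6.34 and 11.0 at 13 hpf. With 12 summits it held more than the first 2, and an 11 hpf summit was found 5074 bp away.

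**Figure D4:**
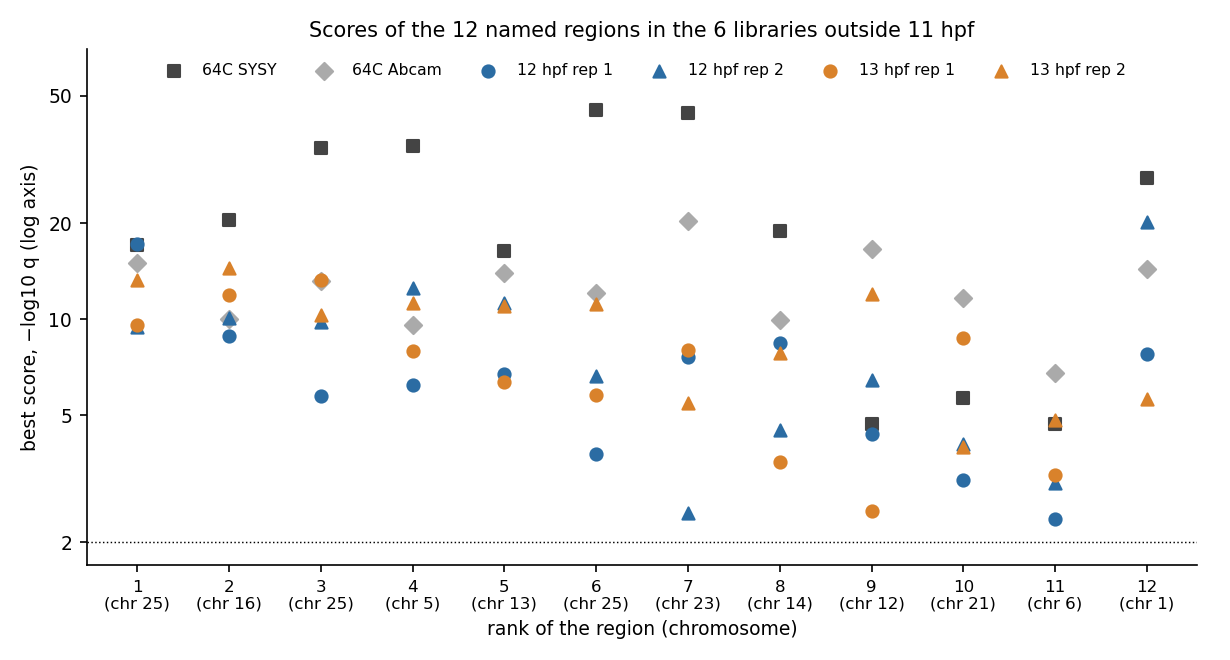
Best score (−log10 q, log axis; dotted line, the floor of 2) of the 12 named regions in each of the 6 libraries outside 11 hpf, in order of the number of libraries and then of the mean percentile. The 64C SYSY score is as high as 45.1 in the region ranked sixth, and the 12 hpf score is as low as 2.37 in the region ranked eleventh, which still had summits in all 6 libraries.

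Of the named regions, 5 lay within 1000 bp of an 11 hpf summit. On chromosome 25 from 8110447 to 8110580, the scores were 34.3 and 13.2 at 64C, 5.74 and 9.78 at 12 hpf, and 13.2 and 10.3 at 13 hpf, and a summit of 11 hpf replicate 2 with a score of 4.03 lay 646 bp away. On chromosome 5 from 1509753 to 1509941, they were 34.8 and 9.57 at 64C, 6.21 and 12.5 at 12 hpf, and 7.92 and 11.2 at 13 hpf, and a summit of 11 hpf replicate 1 with a score of 3.93 lay 445 bp away. In both, every 12 and 13 hpf score was above that of the neighbouring 11 hpf summit. Scores of different libraries are not on a common scale, so this does not measure a difference in signal. On chromosome 25 from 5250080 to 5250252, the scores were 45.1 and 12.0 at 64C, 3.79 and 6.61 at 12 hpf, and 5.78 and 11.1 at 13 hpf, with an 11 hpf summit 558 bp away. On chromosome 23 from 45978460 to 45978898, they were 44.2 and 20.3 at 64C, 7.60 and 2.47 at 12 hpf, and 8.0 and 5.48 at 13 hpf, with an 11 hpf summit 965 bp away. The replicates of 12 hpf differed here, with percentiles of 82.9 and 13.0 in their lists. On chromosome 6 from 1242065 to 1242443, the scores were 4.68 and 6.80 at 64C, 2.37 and 3.07 at 12 hpf, and 3.26 and 4.83 at 13 hpf, and an 11 hpf summit lay 314 bp away. These 5 regions were no longer members when an 11 hpf summit within 1000 bp was also barred.

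The remaining named regions were further from 11 hpf summits. On chromosome 14 from 32226985 to 32227237, the scores were 18.9 and 9.93 at 64C, 8.42 and 4.50 at 12 hpf, and 3.56 and 7.81 at 13 hpf. On chromosome 12 from 49093407 to 49093465, they were 4.68 and 16.6 at 64C, 4.37 and 6.47 at 12 hpf, and 2.51 and 12.0 at 13 hpf. The antibodies ranked this region differently, at percentiles of 40.3 (SYSY) and 99.0 (Abcam). On chromosome 21 from 1788858 to 1788959, the scores were 5.68 and 11.7 at 64C, 3.13 and 4.05 at 12 hpf, and 8.74 and 3.99 at 13 hpf. On chromosome 1 from 31119405 to 31119572, they were 27.6 and 14.3 at 64C, 7.79 and 20.1 at 12 hpf, and 5.63 in 13 hpf replicate 2, with no summit in 13 hpf replicate 1. Of those named, this region was farthest from 11 hpf, with the nearest 11 hpf summit 364677 bp away. Of the 12 regions, 4 were members under all 22 alternatives tried: those on chromosomes 1, 12 and 13 and the one from 4162441 on chromosome 25. Named regions were chosen for the most libraries, so changes in the number of libraries asked for, or leaving 1 out, could hardly remove them.

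To see how far the absence at 11 hpf reached, the distance from each member to the nearest 11 hpf summit of either replicate was taken. Over members with such a summit on their chromosome or scaffold the median was 26463 bp, with quartiles of 4378 and 118453 bp. In 31 members (6.28%) it was at most 500 bp and in 68 (13.8%) at most 1000 bp, whereas 15 members were on scaffolds with no 11 hpf summit at all. Regions absent at 12 hpf had a 12 hpf summit within 1000 bp in 9.98% of cases and regions absent at 13 hpf a 13 hpf summit in 8.17%. The median distances were 29857 and 42116 bp for these sets, which were measured to shorter lists.

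**Figure D5:**
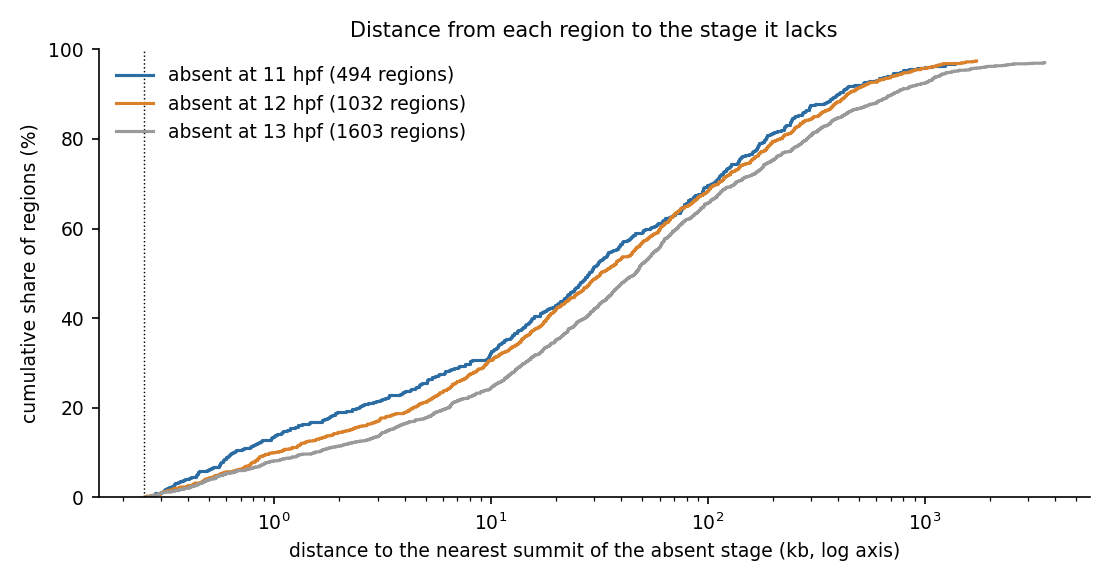
Cumulative share of regions (percent) by the distance to the nearest summit of the stage they lack (kb, log axis; dotted line, the chaining gap of 250 bp). The curve of the members reaches 13.8% at 1000 bp, against 9.98% and 8.17% for the sets absent at 12 and 13 hpf; curves end below 100% because regions on sequences without such a summit have no distance.

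The members nearest to the limit of the rule were only just outside the chaining gap. The nearest was on chromosome 17 from 52042011 to 52042021, 260 bp from a summit of 11 hpf replicate 1 with a score of 7.94. It had scores of 21.8 and 10.5 at 64C, 5.74 and 5.18 at 12 hpf, and 10.2 in 13 hpf replicate 1. It was followed by a region on chromosome 8 from 32177848 to 32178342 (266 bp), 2 on scaffolds (275 and 281 bp) and 1 on chromosome 21 from 44903504 to 44903825 (283 bp). On the other side of the limit, 507 kept regions had a single 11 hpf summit, and in 128 of them its score was under 3. In all regions of the 11 hpf libraries, the best score was under 3 in 18.2% (replicate 1) and 21.6% (replicate 2). The lowest score of a single 11 hpf summit in these kept regions was 2.02, on chromosome 5 from 6721105 to 6721619 and on a scaffold. It was 2.05 on chromosome 20 from 53730739 to 53731026, and 2.06 on chromosome 10 from 43165857 to 43165937 and on chromosome 12 from 3607665 to 3609174. These 5 regions were kept out by 1 summit of 11 hpf replicate 1 near the floor of the list, and each had 2 of the 4 libraries of 12 and 13 hpf.

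Members were spread over the genome. They lay on all 25 numbered chromosomes (456 regions) and on 36 scaffolds (38 regions). Another member was within 100 kb of 93 of them (18.8%), and a kept region within 100 kb of 224 (45.3%). What these shares would be under an even spread was not computed. Chromosome 5 had the most members (28, or 0.842% of its 64C regions) and chromosome 22 the fewest (6, or 0.383%), whereas chromosome 21 had the highest share of its 64C regions (23, or 1.12%). Of the regions with a 64C summit and at least 2 later libraries, the share without 11 hpf was 10.2% (4.74 to 20.5%) on chromosome 22 and 29.1% (20.3 to 39.9%) on chromosome 21. These were the lowest and the highest of the 25 chromosomes. Their intervals overlap, and whether the chromosomes differed was not tested.

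Towards the ends of the chromosomes the members were less frequent than the kept regions. The first and last 2 Mb, 7.46% of the length, held 153 of the 456 members on numbered chromosomes (33.6%, 29.4 to 38.0%). They held 21.9% of all 64C regions, 47.9% (45.5 to 50.3%) of the kept regions, and 40.8% and 41.8% of the regions absent at 12 and 13 hpf. Among regions with exactly 2 libraries of 12 and 13 hpf the shares were 31.1% (26.6 to 36.0%) in members and 43.1% (39.5 to 46.7%) in kept regions, which had 11 hpf summits besides. The members were thus denser at chromosome ends than 64C regions in general, but less so than the regions that had kept a summit at 11 hpf. Read as the share without an 11 hpf summit, it was 16.0% (13.3 to 19.2%) in the first Mb from an end, 16.6% from 1 to 2 Mb, 21.2% from 2 to 5 Mb, 24.8% from 5 to 10 Mb and 31.6% (27.4 to 36.2%) further in. In the later lists of equal length 41.3% of the regions that met the rule lay in the end zones, and this share was not computed for the other sets there.

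Bins of 100 kb dense in the 64C SYSY list alone (at least 20 summits, and at least 10 times the Abcam number plus 1) held few members. They held 3212 of the 64C regions (5.27% of those on numbered chromosomes) but only 8 members (1.75%, 0.892 to 3.42%). The shares were 0.850% in kept regions and 0.825% and 0.600% in the regions absent at 12 and 13 hpf, so that few regions of any of these sets lay there. Leaving these bins out gave 486 members.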

How the data were processed

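For each of the 8 IP libraries the authors deposited 1 list of summits, with the −log10 of the q-value as score. Per the study's methods and the submitters' processing notes, single-end reads were aligned with Bowtie 1.0 to danRer10, a read that matched equally well in several places being assigned to a random one, and MACS2 compared IP with input reads (false discovery rate cutoff 0.01). Peaks are numbered anew in each list, as in calls made per library. Peak names carry the mark Rep2 in the 64C SYSY list, Rep4 in the 6 lists of 11 to 13 hpf and none in the 64C Abcam list. The sources used here do not explain these marks, and libraries were identified by the labels alone. Summits in repeated sequence can therefore stand for any copy. The 5 inputs were used only through these calls. Samples were grouped by their titles.

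Positions were counted from 1. Regions, sets and shares were computed with Python 3.11.15, NumPy 2.4.6 and pandas 2.3.3, and figures with matplotlib 3.10.9. The rule was run on simulated lists with planted regions set well apart, which checks the code but not how the rule treats crowded summits. Members, comparison sets and alternatives were chosen with earlier results of these data known. No test across regions was made, since regions are not replicates and the rule used the lists. Named regions were set by rule: the 12 members in the most libraries and then with the best mean percentile, the 5 nearest to an 11 hpf summit, and the 5 regions kept out by the lowest-scoring single 11 hpf summit. The alternatives changed the chaining gap, score minimum, list length, summits per peak, sequences used, margin around 11 hpf summits and number of libraries asked for, or left out 1 library. Shares carry Wilson intervals. The 2 widest members were added after their values were seen. The last pooled summit of a chromosome was taken as its end. Motifs and gene features were not analysed here, as no danRer10 sequence or annotation was used.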

Additional observations from a re-analysis of the deposited data

How the results depend on the processing

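No result comes from a test, and the labels do not say whether replicates of different stages belong together as pairs. Compared with 494 members, summits at or above their library median gave 269, the 2439 highest-scoring summits of all 8 lists 98, both 64C libraries 273, at least 1 of the 4 later libraries 2586 and at least 3 of them 92. In the same order, regions absent at 12 hpf (1032) became 592, 143, 688, 4061 and 241, and those absent at 13 hpf (1603) became 866, 140, 1109, 5138 and 551. Under each alternative, the members are the regions that met the rule there. Of the 494 members, only 124 (25.1%) still met it with summits at or above their library median. Only 35 (7.09%) did so with 2439 summits in all lists. The counts of 269 and 98 are therefore not counts of members that remained. With later lists of equal length, an alternative added after seeing the data, the 3 numbers were 599, 598 and 630. Leaving out 1 library at a time gave 230 to 956 members, 416 to 1554 regions absent at 12 hpf and 841 to 2144 absent at 13 hpf.

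The share without 11 hpf (21.3%) was 24.5% and 19.2% with gaps of 100 and 1000 bp, 24.0% above the library median, 23.7% with 2439 summits in all lists, 18.4% with 11 hpf summits barred within 1000 bp, 17.4% with both 64C libraries, 45.6% and 8.01% with at least 1 and 3 later libraries, 37.2% with later lists of equal length and 14.9 to 41.1% without single libraries. The share of 64C regions lacking 11 hpf that were members (0.868%) was, with the same changes, 0.706%, 1.01%, 0.909%, 3.54%, 0.782%, 3.04%, 4.54%, 0.162%, 0.992% and 0.404 to 1.60%, and 0.762% with scores of at least 3.

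The share of members with both antibodies (55.3%) was 46.8% above the library median, 0% with 2439 summits in all lists (0 of 98), 59.9% on numbered chromosomes, 62.0% with at least 3 later libraries, 63.4% with later lists of equal length and 52.6 to 63.0% without single libraries. For the 0%, the share of other sets under the same cut was not computed. The share at chromosome ends (33.6%) was 38.5% with scores of at least 3, 43.4% above the library median, 38.5% with both 64C libraries, 45.0% with at least 3 later libraries, 41.3% with later lists of equal length and 33.1 to 39.0% without single libraries. It was lower, at 32.1% and 30.1%, with gaps of 500 and 1000 bp. With 11 hpf summits barred within 1000 bp it was 30.5%, and with at least 1 later library 30.4%. The causes were not tested. The planned windows around summits for motifs were not run. Depth is unknown, so that absence from a list is not absence of 6mA.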
